A study of Mus musculus with 55 samples.

Results

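Gadd45a, Gadd45b, Gadd45g, Btg1, Btg2, Ier2, Ier3 and Ier5 are 8 of the 29684 mouse genes counted in the study, and were chosen by name, as early response genes of the GADD45, BTG and IER groups. All of the genes were measured in mouse primary neuronal cultures by 3′ RNA sequencing, in 55 samples from a pair of experiments. The cultures were made from the cortex and hippocampus of CD1 embryos at embryonic day 16 to 17.5, so that each sample is bulk RNA of a mixed culture. In the maturation experiment (28 samples), cultures at 7 days in vitro (7DIV) and mature cultures (labelled 23DIV, and called 21DIV here) were left unstimulated (basal) or were stimulated for 15 or 180 min with 55 mM KCl, which depolarizes the whole membrane, or with 4APBic, that is 50 μM of the GABA-A receptor blocker bicuculline plus 2.5 mM of the potassium channel blocker 4-aminopyridine. Every one of these groups held 3 samples, apart from the 21DIV 4APBic groups, which held 2 each. In the stimuli experiment (27 samples, all at 21DIV), basal cultures (3 samples) were compared with KCl or with bicuculline alone (Bic) for 15, 45 or 180 min (2 samples each), and cultures silenced for 48 h with 1 μM of the sodium channel blocker TTX (basal TTX, 4 samples) were compared with cultures in which TTX had then been washed out for 15 min (TTXw, 3 samples), 45 min (2 samples) or 180 min (3 samples).

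GADD45 proteins are small nuclear proteins that respond to stress and growth arrest. They bind the kinase MAP3K4 and the replication clamp PCNA, and Gadd45b is known in neurons as an activity-induced gene that takes part in DNA demethylation. BTG1 and BTG2 belong to the BTG/TOB family, which slows proliferation and recruits the CCR4-NOT complex that shortens the poly(A) tail of mRNAs. IER2 and IER5 are related nuclear proteins of the immediate early class, whereas IER3 shares only the name and acts in survival and stress signalling. Immediate early genes are transcribed within minutes of calcium entry by factors that are already present, such as CREB and serum response factor, and their mRNAs are usually short-lived.

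Each member is counted on a single RefSeq transcript. Btg2 and Ier5 lie on chromosome 1 (GRCm38 positions 134074865 to 134079155 and 155096367 to 155099636), Gadd45a on chromosome 6 (67035096 to 67037407), Ier2 on chromosome 8 (84661331 to 84662852), Gadd45b and Btg1 on chromosome 10 (80930091 to 80932204 and 96617001 to 96622813), Gadd45g on chromosome 13 (51846675 to 51848475) and Ier3 on chromosome 17 (35821713 to 35822911). RefSeq promoter windows (GRCm38.p6), taken as the 250 bases before the transcription start, were matched for 7 of the 8 members, all but Ier2. The windows of Btg2 (chr1:134079156-134079405, minus strand), Gadd45b (chr10:80929841-80930090, plus strand) and Gadd45g (chr13:51846425-51846674, plus strand) are printed 5′ to 3′ up to the base before the start, because these genes gave the largest responses with a window. The capitals mark the CRE, which holds the core TGACG on both strands, in Btg2 and the TATA box in Gadd45b and Gadd45g.
Btg2: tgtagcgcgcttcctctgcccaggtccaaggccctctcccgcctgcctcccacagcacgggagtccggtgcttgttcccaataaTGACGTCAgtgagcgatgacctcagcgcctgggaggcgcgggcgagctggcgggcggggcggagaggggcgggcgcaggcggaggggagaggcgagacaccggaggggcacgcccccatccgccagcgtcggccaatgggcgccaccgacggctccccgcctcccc
Gadd45b: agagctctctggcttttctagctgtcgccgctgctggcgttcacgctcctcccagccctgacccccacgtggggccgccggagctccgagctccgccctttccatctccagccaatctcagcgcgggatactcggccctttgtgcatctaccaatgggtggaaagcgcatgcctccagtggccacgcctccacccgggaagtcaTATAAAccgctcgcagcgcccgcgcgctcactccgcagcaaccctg
Gadd45g: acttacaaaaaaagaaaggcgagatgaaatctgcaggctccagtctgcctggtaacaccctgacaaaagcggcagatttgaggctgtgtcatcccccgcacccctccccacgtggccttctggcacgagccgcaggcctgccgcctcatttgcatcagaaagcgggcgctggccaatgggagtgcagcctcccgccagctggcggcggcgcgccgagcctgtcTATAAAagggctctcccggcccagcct
The cAMP response element (CRE) TGACGTCA, to which CREB binds, was found on both strands in the Btg2 window only, from 166 to 159 bases before the start. It was present in 508 of the 32851 RefSeq mouse promoter windows of this length (1.55%). The CRE core TGACG, which lies inside the full CRE, was found in Btg1 and Btg2 and in 17.8% of all windows. A TATAAA sequence lay in the windows of Gadd45b (46 to 41 bases before the start), Gadd45g (27 to 22 bases) and Btg1 (26 to 21 bases), and in 12.4% of all windows. The AP-1 site TGANTCA (6.75% of all windows), the CArG box of serum response factor (1.47%) and the EGR site GCGTGGGCG (0.536%) were searched on both strands and matched none of the 7 windows.

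The libraries held 1177500 to 14012872 counts on genes, with medians of 2867836 at 7DIV, 5088478 at 21DIV (maturation) and 2384138 (stimuli). Levels are given as CPM, the counts of a gene relative to the TMM-scaled library size, with each experiment scaled on its own, so levels are not compared across the experiments. A gene was called at a Benjamini-Hochberg adjusted p under 0.05 over all genes tested and a change of at least 1.5-fold. The test was edgeR's quasi-likelihood F test. Fold changes are on the log2 scale with an approximate SE, derived from the test as the absolute log2 fold change over the square root of F. No label says which samples came from separate cultures, so the p-values measure only the spread between these samples, part of which may be technical. Statements that groups did or did not overlap describe the samples only. The share of all genes without overlap was not computed, and with 2 to 4 samples per group such separation can arise easily. In bulk RNA, fewer cells of a type and less RNA per cell cannot be told apart. Neuronal markers summed to 4320 to 4612 CPM in 7DIV basal and 5350 to 6184 CPM in 21DIV basal samples of the maturation experiment, and microglial markers did not exceed 20.6 CPM in any library. Glial markers differed between several groups. Their values are given beside the results where 3 or more markers of a glial list were called, and in the other comparisons at most 2 markers of a glial list were.

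Between unstimulated mature and immature cultures 4 of the 7 members tested were called, where 3477 of 10510 genes were called in either direction. With so many genes called, this count says little about the members as a set. Gadd45a and Ier3 were higher at 21DIV, where 18.2% of the 10510 genes tested were higher, and Ier2 and Ier5 were lower, where 14.9% were lower. Ier3 was at 9.47, 6.75 and 5.42 CPM in the 7DIV basal samples and at 37.9, 24.1 and 27.9 CPM in the 21DIV basal samples, and every mature sample lay above every immature one (log2 fold change 2.11 ± 0.30, adjusted p = 8.24e-05). Gadd45a was near the detection limit at 7DIV, at 0, 0.613 and 1.08 CPM (counts of 0, 1 and 4), and reached 7.26, 3.76 and 7.52 CPM at 21DIV (counts of 42, 21 and 68). Its fold (log2 3.23 ± 0.70, adjusted p = 0.00236) thus rests on 5 counts in all at 7DIV. It passed the filter on low counts only through 21DIV basal replicates 1 and 3, in the group where it was high. Without either of them it was not tested, and in the other fits without 1 library the log2 fold change ranged from 2.72 to 4.41. Its call is therefore weaker support than those of the other members. The opposite pattern was seen for the paralogous pair Ier2 and Ier5. Ier2 was at 41.7, 22.7 and 23.3 CPM at 7DIV and at 12.6, 8.23 and 8.41 CPM at 21DIV, without overlap (log2 fold change -1.56 ± 0.30, adjusted p = 0.000997). Ier5 was at 29.4, 19.0 and 24.4 and at 10.4, 13.8 and 12.9 CPM, also without overlap (log2 fold change -0.95 ± 0.25, adjusted p = 0.00848). Gadd45b, Gadd45g and Btg2 were not called, with 21DIV basal levels of 5.01, 3.58 and 4.54, 54.1, 30.8 and 40.9 and 22.1, 18.1 and 20.03 CPM against 4.26, 6.13 and 3.52, 56.8, 52.1 and 37.9 and 20.4, 28.2 and 34.1 CPM at 7DIV, and the stages overlapped for each of them. In the same comparison 8 of 10 astrocyte markers and all 9 oligodendrocyte lineage markers tested were higher at 21DIV. The summed astrocyte markers went from 906 to 1406 CPM at 7DIV to 5055 to 6232 CPM at 21DIV, and the oligodendrocyte lineage markers from 474 to 750.3 CPM to 2497 to 3288 CPM. Their part in the member levels was not tested.

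KCl and Bic applied to mature cultures were followed at 15, 45 and 180 min, and all KCl and Bic groups share the same 3 basal samples. Gadd45g was the member called at 15 min under both stimuli. Basal cultures had 61.6, 76.7 and 52.3 CPM of Gadd45g, and the level was 220.2 and 289 CPM after 15 min of KCl (log2 fold change 2.00 ± 0.18, adjusted p = 4.77e-10) and 280.0 and 215 CPM after 15 min of Bic (log2 fold change 1.98 ± 0.19, adjusted p = 1.72e-09). After that the courses separated. Under KCl the level was 86.7 and 124 CPM at 45 min and 195 and 187 CPM at 180 min. Under Bic it was 577 and 527 CPM at 45 min, the highest of any group of the experiment, and 208 and 204 CPM at 180 min. The fall under KCl from 15 to 45 min (log2 -1.28 ± 0.20, adjusted p = 0.000414, where 0.374% of genes were lower), and the rise under Bic over the same interval (log2 1.14 ± 0.20, adjusted p = 0.00129, where 0.133% were higher) both passed the test. The fall under KCl was not called when KCl 15 min replicate 2 or KCl 45 min replicate 1 was left out (adjusted p from 0.0681 to 0.153), nor was the rise under Bic without Bic 15 min replicate 3 (log2 0.97, adjusted p = 0.182). At 180 min Gadd45g was called against basal under both stimuli (log2 1.59 ± 0.19, adjusted p = 2.22e-06 for KCl and log2 1.70 ± 0.18, adjusted p = 3.25e-08 for Bic).

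**Figure D1:**
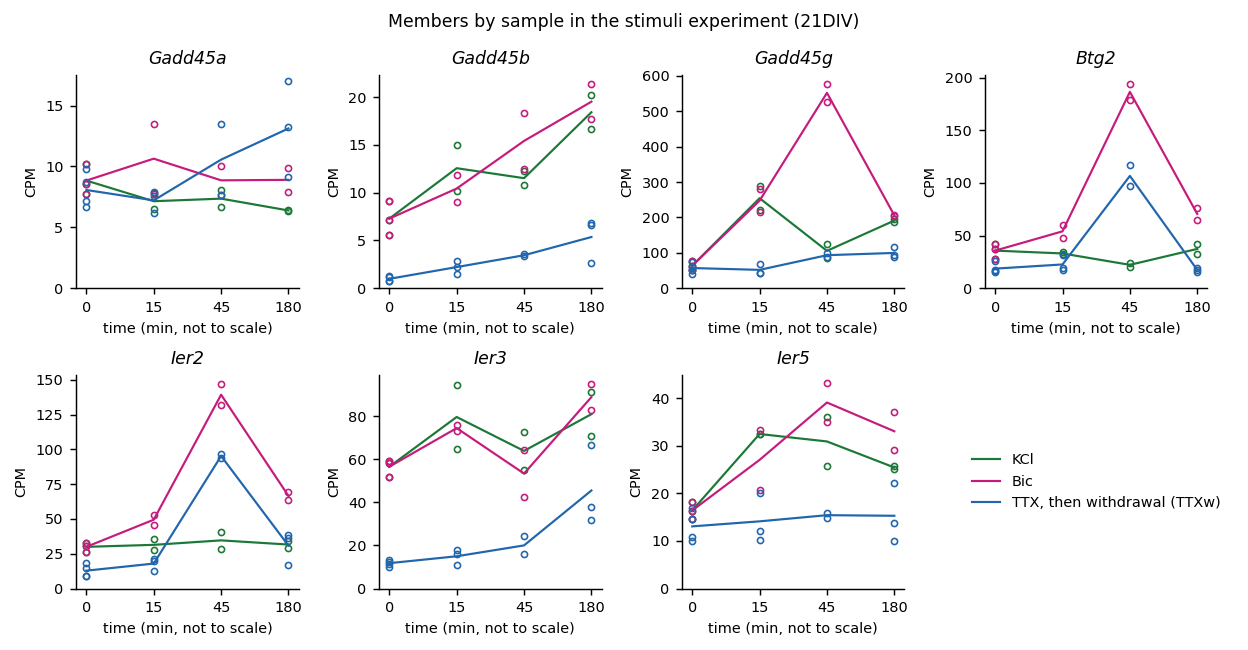
Level of the 7 tested members in every sample of the stimuli experiment, in CPM on a linear axis from 0, against the time of stimulation, with 0 min for basal (KCl and Bic) or basal TTX (TTXw) cultures. Circles are single samples and lines join the group means. Gadd45g, Btg2 and Ier2 stand highest at 45 min of Bic, Btg2 and Ier2 have a second peak at 45 min of TTX withdrawal (group means near 107 and 95.2 CPM), and Gadd45b and Ier3 start lowest in TTX.

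Most calls of the other members were made under Bic. At 45 min of Bic 5 of the 7 members tested were higher than basal, where 4.5% of the 12027 genes tested were higher. Btg2 went from 27.5, 37.6 and 42.1 CPM in basal cultures to 179 and 194 CPM (log2 fold change 2.40 ± 0.18, adjusted p = 1.71e-12), and Ier2 from 26.4, 30.9 and 32.6 CPM to 132 and 147 CPM (log2 fold change 2.22 ± 0.21, adjusted p = 2.82e-10). Gadd45g had the largest fold of all members at this time (log2 3.12 ± 0.18, adjusted p = 9.63e-16). Gadd45b and Ier5 rose less. Ier5 was at 14.6, 16.4 and 18.2 CPM in basal and 34.9 and 43.2 CPM in Bic-treated cultures (log2 fold change 1.27 ± 0.24, adjusted p = 0.000453), and Gadd45b was at 7.16, 5.58 and 9.10 and 18.3 and 12.5 CPM (log2 fold change 1.06 ± 0.30, adjusted p = 0.0193). The groups did not overlap for any of these 5 genes, but the Gadd45b call was lost without basal replicate 1, basal replicate 2 or Bic 45 min replicate 1 (adjusted p from 0.0632 to 0.216). Ier3, at 58.5, 59.2 and 51.9 CPM in basal cultures, was at 42.3 and 64.3 CPM at 45 min of Bic and was not called. In this comparison 7 of 10 astrocyte and 4 of 9 oligodendrocyte lineage markers were also higher (summed astrocyte level 2775 to 3427 CPM in basal and 5579 to 6126 CPM in Bic 45 min samples). Of 10 neuronal markers 4 were higher and 1 was lower (summed level 5554 to 5911 CPM in basal and 7241 to 7326 CPM in Bic 45 min samples). The part of these markers in the member changes was not tested.

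At 15 min of Bic, by contrast, Gadd45g was the only member called, where 2.4% of genes were higher. In that comparison 3 of 10 neuronal markers were higher, and their part in the member changes was not tested. Btg2 (60.4 and 47.7 CPM), Ier2 (52.97 and 45.9 CPM) and Ier5 (33.3 and 20.7 CPM) already lay above every basal sample at 15 min without passing (adjusted p of 0.0714, 0.0583 and 0.0844). Ier2 was called there by DESeq2 (adjusted p = 0.0482) and by edgeR's likelihood ratio test (0.0272), and Ier5 by the main test without Bic 15 min replicate 3 (0.0461). From 15 to 45 min, Btg2 and Ier2 rose further (log2 1.76 ± 0.21, adjusted p = 9.97e-07, and log2 1.47 ± 0.23, adjusted p = 0.000314). At 180 min the same pair had come down to 76.0 and 65.0 CPM for Btg2 and 63.5 and 69.6 CPM for Ier2. Together with Gadd45g they made 3 members that fell between 45 and 180 min, where 1.83% of genes fell (log2 -1.42 ± 0.19, -1.40 ± 0.19 and -1.07 ± 0.21, adjusted p = 1.53e-05, 1.63e-05 and 0.00303). The Ier2 fall was not called without Bic 180 min replicate 2 or 3 (adjusted p 0.0714 and 0.0579). Over the same interval 5 of 10 astrocyte markers (summed level 5579 to 6126 CPM at 45 min and 3326 to 3647 CPM at 180 min) and 3 of 9 oligodendrocyte lineage markers (1382 to 1606 CPM and 1048 to 1096 CPM) fell, and their part in the member changes was not tested.

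After 180 min of Bic, 5 members were still above basal, where 0.69% of genes were higher. Besides Gadd45g these were Gadd45b, at 17.7 and 21.3 CPM (log2 fold change 1.42 ± 0.28, adjusted p = 0.00234), Btg2 (log2 fold change 0.99 ± 0.19, adjusted p = 0.00141), Ier2 (log2 fold change 1.16 ± 0.21, adjusted p = 0.000747) and Ier5, at 29.003 and 37.1 CPM (log2 fold change 1.02 ± 0.24, adjusted p = 0.0213). All Bic samples lay above all basal samples for these genes. Without Bic 180 min replicate 3 the count fell to 3, with Gadd45b (adjusted p = 0.111) and Ier5 (0.490) no longer called. Btg2 was lost without Bic 180 min replicate 2 (0.0809), and Ier5 also without basal replicate 1 or 2 (0.177 and 0.0674). Ier3 at 82.7 and 94.9 CPM was above every basal sample without passing (log2 fold change 0.65 ± 0.20, adjusted p = 0.181).

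In the stimuli experiment KCl moved fewer members than Bic at 45 and 180 min. At 15 min Gadd45g and Ier5 were called, where 4.52% of genes were higher. In the same comparison 5 of 10 astrocyte, 4 of 9 oligodendrocyte lineage and 3 of 10 neuronal markers were higher (summed astrocyte markers 5079 to 5162 CPM, against 2775 to 3427 CPM in basal samples, and oligodendrocyte lineage markers 1444 to 1585 CPM, against 815 to 1257 CPM), and their part in the member changes was not tested. Ier5 was at 32.5 and 32.4 CPM against 14.6, 16.4 and 18.2 CPM in basal cultures (log2 fold change 0.99 ± 0.25, adjusted p = 0.0074), and its call was lost without KCl 15 min replicate 2 (adjusted p = 0.0706). At 45 min no member was called by edgeR's quasi-likelihood test, where 0.765% of genes were called in either direction. At an unadjusted p under 0.05, 4 members and 1342 genes passed. The likelihood ratio test of edgeR called 2 members and 141 genes, and DESeq2 called 1 member and 89 genes. Gadd45g (log2 fold change 0.73 ± 0.19, adjusted p = 0.063) and Ier5 (log2 fold change 0.93 ± 0.25, adjusted p = 0.0723) were the nearest to the threshold, and Gadd45g passed without basal replicate 2 (adjusted p = 0.0308). At 180 min of KCl, Gadd45g and Gadd45b were called, where 0.507% of genes were higher. Gadd45b was at 20.2 and 16.6 CPM (log2 fold change 1.32 ± 0.32, adjusted p = 0.0325), above all basal samples, but was not called in 4 of 5 fits that left out 1 of the libraries (adjusted p from 0.115 to 0.363) or by DESeq2 (0.0648). Between 45 and 180 min of KCl no member was called, where 0.141% of genes were called in either direction. At an unadjusted p under 0.05 there were 2 members and 1108 genes. The likelihood ratio test called 1 member (Gadd45g, adjusted p = 0.0265) and 44 genes, and DESeq2 called no member and 21 genes.

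Compared directly at matched times, Bic and KCl differed in the most members at 45 min. Gadd45g, Btg2 and Ier2 were higher under Bic, where 0.499% of genes were higher. Btg2 was at 24.1 and 20.3 CPM after 45 min of KCl, below all 3 basal samples (adjusted p against basal 0.194), and at 179 and 194 CPM after Bic (log2 fold change 3.06 ± 0.22, adjusted p = 1.12e-12 for Bic against KCl). Ier2 was at 28.5 and 40.6 CPM after KCl, close to its basal level, and at 132 and 147 CPM after Bic (log2 fold change 2.02 ± 0.23, adjusted p = 2.14e-07). For Gadd45g the difference was of similar size (log2 2.39 ± 0.21, adjusted p = 1.00e-10). All 3 differences held when any 1 library was left out. At 15 min no member and no gene differed between the stimuli by the quasi-likelihood test (0%), with 2 members and 553 genes at an unadjusted p under 0.05, no member called by the likelihood ratio test or DESeq2, and 7 genes and 1 gene called by these tests, respectively. At 180 min Btg2 (log2 fold change 0.93 ± 0.23, adjusted p = 0.0371) and Ier2 (log2 fold change 1.09 ± 0.26, adjusted p = 0.0315) were higher under Bic, where 0.432% of genes were higher. Neither call held in any of the 4 fits without 1 library.

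In silenced cultures some members were far below their level in active cultures. Against basal cultures, 4 members were lower in basal TTX, where 10.8% of genes were lower. Ier3 was at 9.98, 13.4, 11.4 and 12.3 CPM in TTX and 58.5, 59.2 and 51.9 CPM without it (log2 fold change -2.25 ± 0.23, adjusted p = 4.25e-10). Gadd45b was at 1.33, 1.16, 0.715 and 0.723 CPM in TTX (counts of 2, 2, 1 and 2), against 7.16, 5.58 and 9.10 CPM in basal cultures (log2 fold change -2.86 ± 0.44, adjusted p = 2.69e-06). Thus Gadd45b was at or under 2 counts in every silenced library, and its fold is accordingly uncertain. Ier2 was at 9.31, 18.004, 15.0 and 9.04 CPM (log2 fold change -1.25 ± 0.24, adjusted p = 6.43e-05) and Btg2 at 15.3, 26.1, 17.2 and 15.9 CPM (log2 fold change -0.93 ± 0.20, adjusted p = 0.00032). None of these 4 genes overlapped between the groups, and all 4 calls held without any 1 library. Gadd45g, by contrast, was at 61.2, 75.5, 50.8 and 40.9 CPM in TTX and 61.6, 76.7 and 52.3 CPM in basal cultures (log2 fold change -0.17 ± 0.18, adjusted p = 0.508), Gadd45a was at 6.65, 8.71, 7.15 and 9.76 and 7.74, 8.56 and 10.2 CPM (log2 fold change -0.09 ± 0.28, adjusted p = 0.858), and Ier5 was at 9.98, 14.5, 10.7 and 16.996 and 14.6, 16.4 and 18.2 CPM (log2 fold change -0.27 ± 0.25, adjusted p = 0.454). For these 3 genes the groups overlapped. All 10 astrocyte markers and 6 of 9 oligodendrocyte lineage markers were higher in basal TTX (summed levels of 7774 to 8956 CPM and 2250 to 2299 CPM, against 2775 to 3427 CPM and 815 to 1257 CPM in basal cultures), and the summed neuronal markers were 4631 to 5129 CPM against 5554 to 5911 CPM. Their part in the lower member levels was not tested.

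TTX withdrawal, compared with the 4 basal TTX samples, raised members at 45 and 180 min. At 15 min no member and no gene was called by the quasi-likelihood test (0%), with 1 member and 758 genes at an unadjusted p under 0.05. No member was called by the likelihood ratio test or DESeq2, which called 9 and 0 genes. At 45 min Btg2 and Ier2 were called, where 0.349% of genes were higher. Btg2 rose to 117 and 96.7 CPM from 15.3, 26.1, 17.2 and 15.9 CPM (log2 fold change 2.52 ± 0.20, adjusted p = 1.53e-11), and Ier2 to 96.6 and 93.8 CPM from 9.31, 18.004, 15.0 and 9.04 CPM (log2 fold change 2.92 ± 0.23, adjusted p = 1.53e-11). The rise took place between 15 and 45 min (log2 2.28 ± 0.21, adjusted p = 1.78e-09 for Btg2 and log2 2.36 ± 0.24, adjusted p = 9.22e-09 for Ier2, where 0.258% of genes were higher). By 180 min Btg2 was back at 15.7, 17.5 and 19.0 CPM, inside the range of the silenced cultures. Gadd45g, at 87.2 and 99.6 CPM at 45 min, lay above all silenced samples and was not called (log2 fold change 0.73 ± 0.20, adjusted p = 0.109), although it was called without basal TTX replicate 2 (adjusted p = 0.0314) and by the likelihood ratio test (0.0390).

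At 180 min of withdrawal 4 members were called, where 7.33% of genes were higher. Ier3 reached 37.9, 31.7 and 66.8 CPM from 9.98, 13.4, 11.4 and 12.3 CPM (log2 fold change 1.89 ± 0.25, adjusted p = 3.78e-07), and Gadd45g reached 89.6, 92.7 and 117 CPM from 61.2, 75.5, 50.8 and 40.9 CPM (log2 fold change 0.82 ± 0.18, adjusted p = 0.000906). Gadd45b was at 2.62, 6.62 and 6.83 CPM (counts of 4, 14 and 9), above every silenced sample (log2 fold change 2.44 ± 0.51, adjusted p = 0.000456). Ier2, at 36.6, 17.03 and 38.7 CPM, was called as well (log2 fold change 1.25 ± 0.26, adjusted p = 0.000388), but its lowest sample lay within the range of the silenced cultures. These 4 calls held when any 1 library was left out. Gadd45a was at 17.01, 13.2 and 9.11 CPM in these samples and 6.65, 8.71, 7.15 and 9.76 CPM in silenced ones (log2 fold change 0.68 ± 0.29, adjusted p = 0.0983). From 45 to 180 min of withdrawal Btg2 and Ier2 fell (log2 -2.61 ± 0.22, adjusted p = 6.38e-11, and log2 -1.68 ± 0.23, adjusted p = 1.72e-06), where 6.77% of genes were lower. Ier3 rose over that interval (log2 1.16 ± 0.28, adjusted p = 0.00312), where 5.56% of genes were higher. Over the same interval 6 of 10 astrocyte and 5 of 9 oligodendrocyte lineage markers were also higher, and 7 of 10 neuronal markers were lower. The Ier3 rise was not called without TTXw 45 min replicate 3 (log2 0.88, adjusted p = 0.108). At 180 min of withdrawal 6 of 10 astrocyte and 6 of 9 oligodendrocyte lineage markers were higher than in silenced cultures, and 6 of 10 neuronal markers were lower (summed level 2746 to 3281 CPM). The summed astrocyte markers were 11564 to 16189.8 CPM and the oligodendrocyte lineage markers 3252 to 4041 CPM. Their part in the member changes was not tested.

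The maturation experiment allowed the responses to be compared between 7DIV and 21DIV. At 7DIV, KCl for 180 min was the only treatment with members called, where 1.05% of the 11746 genes tested were higher. Ier2 rose to 118, 137 and 153 CPM from 41.7, 22.7 and 23.3 CPM (log2 fold change 2.22 ± 0.26, adjusted p = 3.67e-06), and Gadd45g to 109, 231 and 206 CPM from 56.8, 52.1 and 37.9 CPM (log2 fold change 1.91 ± 0.36, adjusted p = 0.00209). Both were higher in 3 of 3 samples, and both calls held without any 1 library. Btg2 was uneven after KCl, at 18.4, 72.7 and 61.1 CPM against 20.4, 28.2 and 34.1 CPM in basal samples, with KCl replicate 1 below all of them, and was not called (log2 fold change 0.86 ± 0.42, adjusted p = 0.399). At 15 min of KCl, at 15 min of 4APBic and at 180 min of 4APBic no member and no gene was called at 7DIV by the quasi-likelihood test (0%, 0% and 0% of genes, respectively). At an unadjusted p under 0.05 these comparisons gave 1, 2 and 1 members and 659, 793 and 701 genes, and neither the likelihood ratio test nor DESeq2 called a member (5, 5 and 2 genes by the former and 3, 3 and 0 by the latter). Gadd45g after 180 min of 4APBic, at 64.6, 102 and 59.3 CPM, lay above all 7DIV basal samples without passing (log2 fold change 0.64 ± 0.36, adjusted p = 0.858).

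At 21DIV KCl raised Gadd45g and Ier3 at 15 min, where 3.21% of genes were higher. Ier3 was at 59.4, 67.4 and 65.1 CPM after KCl and at 37.9, 24.1 and 27.9 CPM in basal cultures, and the 3 stimulated samples were close to each other (log2 fold change 1.09 ± 0.20, adjusted p = 0.000682). Gadd45g was at 135, 275 and 55.0 CPM against 54.1, 30.8 and 40.9 CPM (log2 fold change 1.87 ± 0.34, adjusted p = 0.000701), with a wide spread and its lowest stimulated sample only just above the highest basal one. Without KCl 15 min replicate 2, the highest sample, it was still called with a log2 fold change of 1.19. At 180 min of KCl 5 members were called, where 2.98% of genes were higher. Ier3 reached 79.6, 91.3 and 83.1 CPM (log2 fold change 1.499 ± 0.20, adjusted p = 1.67e-05), Gadd45g 164, 164 and 172 CPM (log2 fold change 1.99 ± 0.34, adjusted p = 0.000468), and Gadd45b 16.5, 12.3 and 18.2 CPM from 5.01, 3.58 and 4.54 CPM (log2 fold change 1.83 ± 0.40, adjusted p = 0.00472). Ier2 reached 24.3, 26.8 and 33.98 CPM from 12.6, 8.23 and 8.41 CPM (log2 fold change 1.54 ± 0.26, adjusted p = 0.000549), which lay in the range of the unstimulated 7DIV cultures. For Btg2 the groups overlapped, as KCl replicate 1 was at 11.3 CPM and the other two samples at 79.2 and 78.1 CPM, against 22.1, 18.1 and 20.03 CPM in basal cultures (log2 fold change 1.48 ± 0.40, adjusted p = 0.0228). That call was lost without basal replicate 2 or 3 or KCl replicate 2 or 3 (adjusted p from 0.0873 to 0.184), and the fold was 1.96 on the log2 scale without KCl replicate 1. At both stages KCl 180 min replicate 1 was the library with the lowest Btg2 level of its group.

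**Figure D2:**
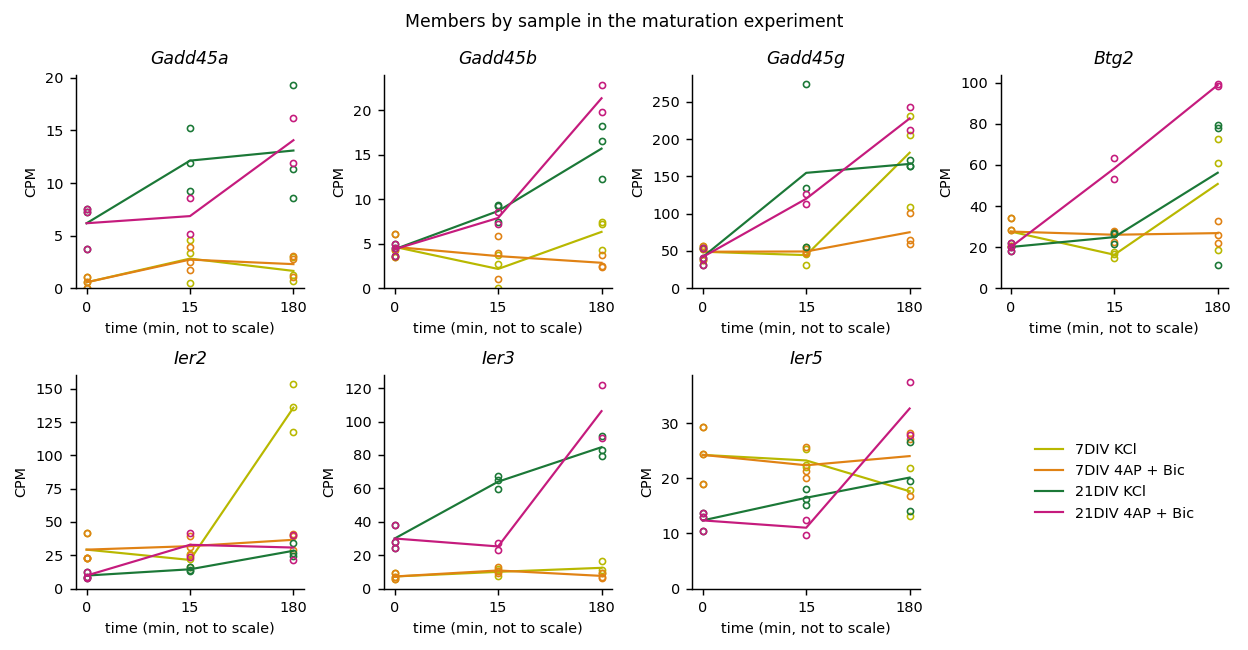
Level of the 7 tested members in every sample of the maturation experiment, in CPM on a linear axis from 0, at 0 (basal), 15 and 180 min of KCl or of 4APBic (4AP + Bic in the key) at 7DIV and 21DIV. Circles are single samples and lines join the group means. Ier2 is highest after 180 min of KCl at 7DIV, whereas Ier3 stays under 17 CPM in all 7DIV samples and exceeds 79 CPM after 180 min of either stimulus at 21DIV.

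4APBic for 180 min raised 6 of the 7 tested members in mature cultures, where 7.39% of genes were higher, and no stimulated sample of these 6 genes overlapped with a basal one. Ier3 went from 37.9, 24.1 and 27.9 CPM to 122 and 90.3 CPM (log2 fold change 1.83 ± 0.21, adjusted p = 7.69e-07) and Gadd45g from 54.1, 30.8 and 40.9 CPM to 212 and 243 CPM (log2 fold change 2.44 ± 0.36, adjusted p = 3.14e-05). Btg2 was at 98.2 and 99.6 CPM (log2 fold change 2.30 ± 0.43, adjusted p = 0.000381) and Gadd45b at 22.8 and 19.8 CPM (log2 fold change 2.28 ± 0.42, adjusted p = 0.000391), and these last 3 genes had the larger estimates. Ier5 rose to 37.4 and 27.9 CPM from 10.4, 13.8 and 12.9 CPM (log2 fold change 1.40 ± 0.26, adjusted p = 0.000311), and Ier2 to 40.2 and 21.4 CPM (log2 fold change 1.68 ± 0.29, adjusted p = 0.000152), a call that was lost without 4APBic 180 min replicate 2 (log2 1.14, adjusted p = 0.0504). Gadd45a, at 16.2 and 11.9 CPM, was above all basal samples and was not called (log2 fold change 1.18 ± 0.48, adjusted p = 0.0911); with only the compared groups in the fit its adjusted p was 0.0480. In this comparison 4 of 10 astrocyte markers and 4 of 9 oligodendrocyte lineage markers were lower than basal (summed levels of 1863 to 3632 CPM and 1071 to 1728 CPM). Of 10 neuronal markers 2 were higher and 3 were lower. The part of these markers in the member changes was not tested. At 15 min of 4APBic only Ier2 was called, at 41.7 and 24.0 CPM (log2 fold change 1.73 ± 0.31, adjusted p = 0.0108), where 0.0511% of genes, 6 in all, were higher. This call was lost without basal replicate 2 or 3 or 4APBic 15 min replicate 1 (adjusted p from 0.102 to 0.659). Btg2 (53.1 and 63.5 CPM) and Gadd45g (113 and 127 CPM) also lay well above basal at 15 min but had adjusted p-values of 0.633 and 0.346. Without the filter on low counts both were called (adjusted p of 1.01e-06 and 1.97e-11). Their log2 fold changes moved little over the settings, from 1.45 to 1.60 for Btg2 and from 1.45 to 1.64 for Gadd45g. With the filter, the likelihood ratio test and DESeq2 called 1 member each, and 9 and 6 genes. The reason for the lower adjusted p-values without the filter was not tested.

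The difference of the response between the stages was tested for each stimulus as an interaction, that is the log2 fold change at 21DIV minus that at 7DIV, with an adjusted p under 0.05 as the call. For 4APBic at 180 min the response was larger at 21DIV for 6 of 7 members, where 2.58% of genes had a larger response. The differences on the log2 scale were 2.90 ± 0.67 for Gadd45b (adjusted p = 0.0113), 2.35 ± 0.61 for Btg2 (adjusted p = 0.0221), 1.80 ± 0.51 for Gadd45g (adjusted p = 0.0372), 1.72 ± 0.37 for Ier3 (adjusted p = 0.00744), 1.42 ± 0.36 for Ier5 (adjusted p = 0.018) and 1.35 ± 0.39 for Ier2 (adjusted p = 0.0427). Gadd45a was the exception, with a difference of -0.60 ± 0.94 (adjusted p = 0.782) on very low 7DIV counts. The Gadd45b difference also includes a fall at 7DIV that was not called, from a mean of 4.64 to 2.86 CPM. That fall rests on counts of 9, 10 and 13 in basal and 7, 12 and 7 in 4APBic samples, so the size of the difference is uncertain. With only 2 samples of 21DIV 4APBic, the calls depended on single libraries more than the estimates did. Without 21DIV 4APBic 180 min replicate 2, which leaves 1 sample in that arm, no member was called, but the differences were 2.79 for Gadd45b, 2.36 for Btg2, 1.89 for Gadd45g, 1.48 for Ier3, 1.19 for Ier5 and 0.80 for Ier2 (adjusted p from 0.0628 to 0.397). Without 7DIV 4APBic 180 min replicate 1 there were 2 calls, and without 7DIV basal replicate 2 or 21DIV basal replicate 2 there were 3. In the same test 3 of 10 astrocyte and 4 of 9 oligodendrocyte lineage markers had a lower response at 21DIV (median log2 difference over the lists -0.94 and -1.18), and their part in the member differences was not tested.

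For KCl fewer differences between the stages passed. At 15 min the Gadd45g response was larger at 21DIV (log2 difference 2.02 ± 0.50, adjusted p = 0.0289), where 0.86% of genes had a larger response. This call was lost in 7 of the 12 fits without 1 library (adjusted p from 0.0559 to 0.119), and the difference was 1.33 without 21DIV KCl 15 min replicate 2, the highest sample. At 180 min, where both stages responded, no member differed, and 0.775% of genes did in either direction. The Gadd45g difference was 0.08 ± 0.48 and that of Ier2 -0.68 ± 0.37 (adjusted p 0.967 and 0.41). At an unadjusted p under 0.05 there were 2 of 7 members and 1684 of 11746 genes. No member was called by the likelihood ratio test or DESeq2, which called 251 and 216 genes. At 15 min of 4APBic no member differed either, and 1 gene did (0.00851%). There 4 members and 587 genes had an unadjusted p under 0.05. No member was called by the likelihood ratio test or DESeq2, which called 7 and 5 genes.

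**Figure D3:**
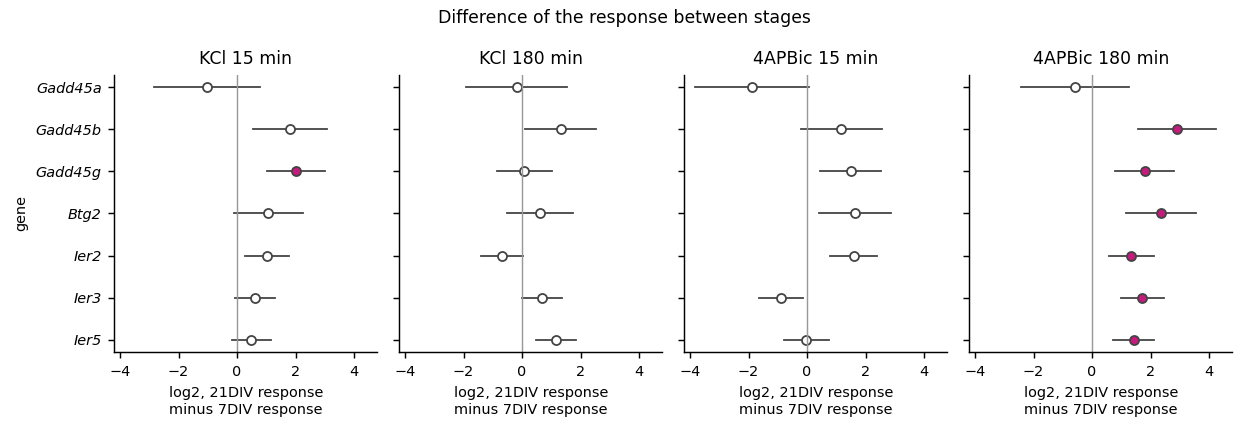
Difference between the responses at 21DIV and 7DIV (x axis, log2 fold change at 21DIV minus that at 7DIV) for the 7 tested members, 1 panel per stimulus and time. Points are estimates and bars are approximate 95% intervals (1.96 SE, by the normal distribution). Filled points have an adjusted p under 0.05. They are Gadd45g at 15 min of KCl and all members but Gadd45a at 180 min of 4APBic.

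Over the 17 comparisons of a stimulated group with its own control, Gadd45g was called in 10, Ier2 in 8, Gadd45b in 6, Btg2 in 5, and Ier3 and Ier5 in 4 each, and every one of these calls was a rise. Gadd45a was called in none by edgeR's quasi-likelihood test, although its unadjusted p was under 0.05 in 7, and the likelihood ratio test and DESeq2 called it in none either. Its comparisons at 7DIV all use the same basal group, with counts of 0, 1 and 4, so their p-values are weak support for a response. The 17 comparisons share control samples within a stage and within the TTX and TTX-free arms, so their counts are not independent. Of all 12484 genes tested in any of the 17 comparisons, 67.3% were never called, 19.1% rose in some comparison and 18.1% fell in some. The share of all genes called in several comparisons was not computed, so the number of calls per member has no such background. The members differed in their range: the condition means in the stimuli experiment spanned 19.9-fold for Gadd45b, between 10.6-fold and 10.8-fold for Gadd45g, Btg2 and Ier2, 7.55-fold for Ier3, 2.99-fold for Ier5 and 2.06-fold for Gadd45a. The lowest mean lay in a TTX or TTXw group for all of these but Gadd45a. For Gadd45b it was 0.983 CPM in basal TTX, on 1 or 2 counts per library. In the groups without TTX the Gadd45b means ran from 7.28 to 19.5 CPM.

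**Figure D4:**
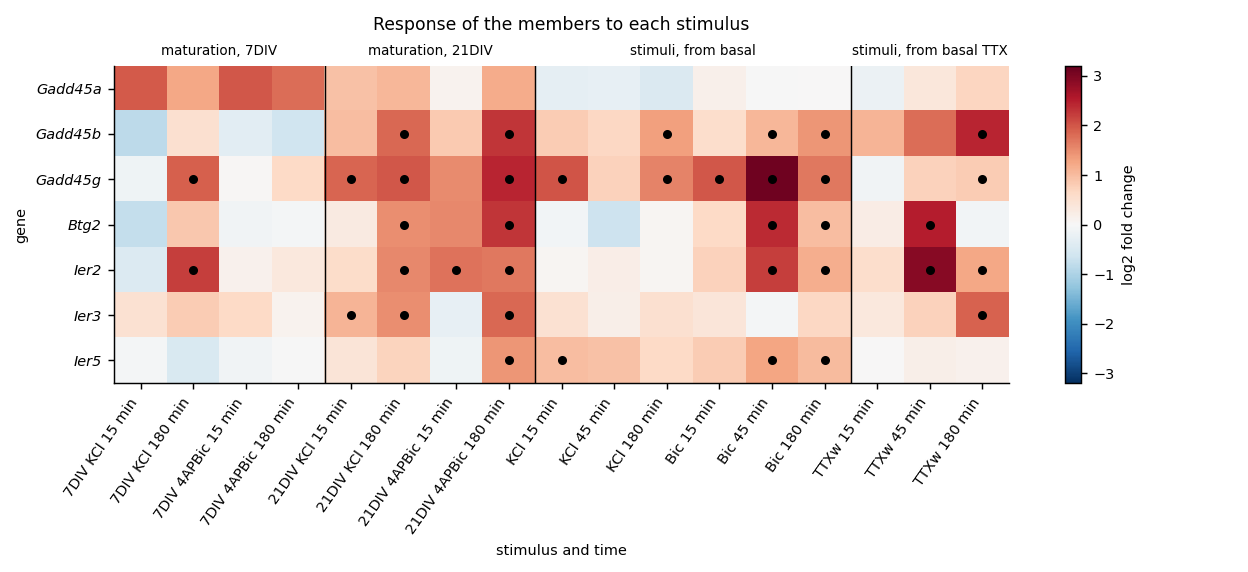
Log2 fold change of the 7 tested members (rows) in the 17 comparisons of a stimulated group with its control (columns), coloured from blue (lower) to red (higher), with a black dot on each call. All dots lie on rises, Gadd45g has 10 of them and Gadd45a none, and the deep colours of Gadd45a at 7DIV come from a basal group with 5 counts in all.

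Btg1 was the member that could not be followed. It had 148 counts over all samples of the maturation experiment and 116 over those of the stimuli experiment, did not pass the filter of more than 5 CPM in at least 2 samples in either experiment, and was not tested. Its highest levels were 5.65 and 4.59 CPM after 180 min of KCl in the stimuli experiment (7 and 8 counts). In a fit without the filter no difference was called, the lowest adjusted p being 0.605.

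The genes with the most similar course were taken from 11289 genes tested in both experiments, by Pearson's r of the condition means over 21 conditions after centring on each control family. The conditions share controls and libraries, so r is a description. Btg2 was most like Dusp1 (r = 0.90), Ier2 (0.87) and Egr4 (0.86), and Ier2 was most like Egr1 (0.92), Fos (0.87) and Btg2. Gadd45b was closest to Nr4a2 (0.88), Nr4a3 (0.87) and Fosb (0.86), and Gadd45g to Npas4 (0.87), Fosb (0.85) and Mapre1 (0.85). The neighbours of Ier3 were Pvr (0.91), Adm (0.89) and Atf3 (0.89), those of Ier5 Sgk1 (0.88), Frmd6 (0.86) and Inhba (0.85), and those of Gadd45a Crocc, Cox6b2 and Ucp2 (0.84 each). Of the pairs that share a name, Gadd45b and Gadd45g had an r of 0.72, Ier3 and Ier5 0.54, Gadd45a and Gadd45g 0.33, Ier2 and Ier5 0.25, Ier2 and Ier3 0.24 and Gadd45a and Gadd45b 0.18. Of the pairs with different names, Btg2 and Ier2 were the most alike and Btg2 and Ier3 the least (0.10).

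Genes that work with the members were set beside all 12484 genes tested in at least 1 of the 17 comparisons, of which 67.3% were never called, 19.1% rose in at least 1 comparison and 18.1% fell in at least 1. Of 23 partners and targets of GADD45 proteins and p53, 13 were not called in any of the 17 comparisons, 8 rose in at least 1 and 8 fell in at least 1. Cdkn1a, the cell cycle inhibitor p21, rose in 6, for example after 180 min of 4APBic at 21DIV from a mean of 164 to 554 CPM (log2 fold change 1.76 ± 0.29, adjusted p = 8.91e-05). Bbc3, which encodes the pro-apoptotic protein PUMA, fell in 4, for example after 45 min of Bic from a mean of 28.6 to 6.07 CPM (log2 fold change -2.29 ± 0.32, adjusted p = 4.11e-06). Ccnb1, the mitotic cyclin B1, rose in 3 and fell in 1, and its rise after 180 min of TTX withdrawal was from a mean of 11.5 to 38.4 CPM (log2 fold change 1.73 ± 0.28, adjusted p = 1.10e-05). Of 10 genes tested from a list of DNA demethylation factors (11 listed), which also held the DNA methyltransferases Dnmt1 and Dnmt3a, 7 were never called. Tet3, which oxidizes 5-methylcytosine, rose in 5, all in the stimuli experiment, among them KCl for 15 min from a mean of 31.5 to 84.9 CPM (log2 fold change 1.43 ± 0.18, adjusted p = 3.67e-07). After 15 min of KCl at 21DIV in the maturation experiment Tet3 was not called, from a mean of 39.7 to 42.2 CPM (log2 fold change 0.06 ± 0.19, adjusted p = 0.892). Tet2, another oxidase of this kind, and the glycosylase gene Mbd4 rose in 1 each (log2 1.60 after 180 min of KCl and log2 1.37 after 180 min of 4APBic, both at 21DIV).

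The deadenylation genes around BTG2 and the IER relatives had few calls, against the same 67.3% of all genes never called. The list of BTG/TOB relatives and CCR4-NOT subunits also held Pabpc1, Pan2, Pan3 and Prmt1. Of its 17 genes tested (18 listed), 16 were never called. Pabpc1, the cytoplasmic poly(A)-binding protein, rose in 3, among them Bic for 45 min from a mean of 56.6 to 102 CPM (log2 fold change 0.85 ± 0.23, adjusted p = 0.0126). Of 11 IER relatives and partners tested (12 listed), 10 were never called. Mcl1, an anti-apoptotic BCL2 family gene, rose in 2, after 180 min of TTX withdrawal from a mean of 57.8 to 226 CPM (log2 fold change 1.98 ± 0.15, adjusted p = 5.73e-13) and, more weakly, after 180 min of 4APBic at 21DIV (log2 0.87). These lists are described by their counts alone.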

How the data were processed

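Both tables deposited by the authors hold whole-number read counts per RefSeq transcript from CEL-Seq2 3′ libraries, aligned with STAR to mm10 and quantified with the End Sequence Analysis Toolkit. Accessions were matched to symbols in RefSeq (GRCm38.p6), which covered 80.8% and 80.9% of transcripts; 18.5% and 19.2% of counts lay on unmatched transcripts and were left out. For each gene the most highly counted transcript was kept, since the transcripts of a gene repeat counts. The counts were scaled by TMM, filtered (over 5 CPM in at least 2 samples) and tested in edgeR 4.0.16 (R 4.3.3) by the quasi-likelihood F test, with all groups of an experiment in 1 fit and Benjamini-Hochberg adjustment over 11746 genes (maturation), 12027 (stimuli) or 10510 (basal stages, fitted on their 6 samples). DESeq2 1.42.0 was an alternative. Scripts were tested on simulated data.

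Named genes were all 8 members, the 3 most like each, and from each related list up to 3 with the most calls. The members and lists were chosen with earlier results of these data known. Groups came from the labels, which write 23DIV for the mature cultures of the maturation experiment. Replicate pairs differed by more than sampling noise (chi-square per degree of freedom 2.17 to 20.2, 48 pairs). Same-numbered samples did not deviate together (correlations from -0.25 to 0.11 in the maturation and from -0.09 to 0.10 in the stimuli experiment), so no block was used.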

Additional observations from a re-analysis of the deposited data

Results flagged for a closer look

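Responses that differed between 7DIV and 21DIV by the interaction test drew attention for 6 members. For 180 min of 4APBic the log2 response was larger at 21DIV by 2.90 for Gadd45b, 2.35 for Btg2, 1.80 for Gadd45g, 1.72 for Ier3, 1.42 for Ier5 and 1.35 for Ier2. For 15 min of KCl it was larger by 2.02 for Gadd45g. All 7 differences rest on groups of 2 or 3 samples, and that of Gadd45b also on low counts at 7DIV. Without 21DIV 4APBic 180 min replicate 2 the calls for 4APBic were lost, while the differences were 2.79 for Gadd45b, 2.36 for Btg2, 1.89 for Gadd45g, 1.48 for Ier3, 1.19 for Ier5 and 0.80 for Ier2.

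Samples far from the others were looked for in basal TTX, the single group large enough for that check. There 0 of 8 member levels passed Dixon's critical value. With only 4 samples this does not show that no sample lay apart. Btg2 came nearest, with replicate 2 at 26.1 CPM and the others at 15.3, 17.2 and 15.9 CPM. Its gap to the next sample was 0.8276 of the range, just under the critical value.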

How the results depend on the processing

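No call changed direction under any setting. Over 32 comparisons the members were called 69 times, against 78 with edgeR's likelihood ratio test, 71 with DESeq2, 70 with RLE size factors, 83 without the filter, 69 with filterByExpr, 61 with counts thinned to the smallest library and 49 with counts summed over transcripts, where each library's total was 2.95 to 3.48 times the main one and the median member level fell to 5.83 CPM. Fits on the compared groups gave 71 calls in 31 comparisons. The replicate block gave 66 calls; the numbers do not pair the samples, and the block moved the counts of KCl 15 min between stages to 0, KCl 180 min to 1, Bic 15 min to 2, Bic against KCl at 180 min to 1 and KCl 180 against 45 min to 1. Single calls that the block ended were Ier5 between basal stages (adjusted p = 0.0844), Btg2 (log2 1.70, 0.136) and Gadd45g (0.0638) for the 4APBic 180 min difference and Gadd45g (0.0521) for that of KCl 15 min, Gadd45b for KCl 180 min (0.0536) and Ier2 for Bic against KCl at 180 min (0.0932).

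Summed transcripts gave 3 instead of 5 calls for 21DIV KCl 180 min, 0 instead of 1 for the KCl 15 min difference between stages, 2 instead of 6 for that of 4APBic 180 min, 1 instead of 2 for KCl 15 min and 180 min in the stimuli experiment, 2 instead of 5 for Bic 180 min, 0 instead of 2 for Bic against KCl at 180 min, 0 instead of 1 for KCl 45 against 15 min and 1 instead of 3 for Bic 45 against 15 min. Thinning gave 1 for KCl 45 min, 1 for KCl 180 min, 3 for Bic 180 min and 1 for Bic against KCl at 180 min. Without the filter there were 3 calls for 21DIV 4APBic 15 min (1 with it), 3 for its difference between stages (0 with it), 2 for KCl 45 min, 2 for Bic 15 min and 1 for KCl 180 against 45 min. The likelihood ratio test gave 2 for the KCl 15 min difference, 2 for KCl 45 min, 3 for Bic 15 min and 1 for KCl 180 against 45 min; DESeq2 gave 1 for KCl 45 min, 1 for KCl 180 min and 2 for Bic 15 min, and RLE factors 2 for Bic 15 min. Fits on the compared groups gave 2 for 21DIV 4APBic 15 min, 0 for the KCl 15 min difference, 2 for KCl 45 min, 2 for Bic 15 min and 1 for KCl 180 against 45 min. The cause of these changes was not tested.

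Without 1 library, counts ranged from 0 to 1 for 21DIV 4APBic 15 min, the KCl 15 min difference between stages, KCl 45 min and KCl 45 against 15 min, from 0 to 6 for the 4APBic 180 min difference, from 1 to 2 for KCl 15 min, KCl 180 min and Bic 15 min, from 3 to 5 for Bic 180 min, and were 0 throughout for Bic against KCl at 180 min. Of the 135 member and comparison pairs that no setting called, 53 changed sign under some setting. Counts were low for Btg1, for Gadd45a at 7DIV and for Gadd45b in TTX and at 7DIV, which limits what can be said of them.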
